A study of Mus musculus with 20 samples.

Results

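The microRNAs (miRNAs) mmu-miR-192-5p and mmu-miR-194-5p, written below without the species prefix, were followed through the conversion of mouse embryonic stem cells to epiblast stem cells. They were taken by name and are 2 of the 1063 mature miRNAs listed in the tables of both lines. Small RNA libraries had been made from a female line (PGK) and a male line (E14), each in 2 differentiation experiments, here replicates 2 and 3 after the labels, so that 20 libraries formed 10 groups of 2. Day 0 cells of both lines were naive cells in 2i medium, which holds them with inhibitors of Mek and Gsk3. Cells of the other stages grew on fibronectin in N2B27 medium containing Activin A and Fgf2 and were taken at day 4, at day 10, in a window at days 19 to 23 and in a late window at days 27 to 30. Each sex was 1 cell line, so sex and line cannot be told apart. Within a line all changes use the same day 0 libraries, and the day 0 libraries of replicate 3 carry a cell-type label of differentiating cells in both lines although their day label is day 0. The p-values of changes and line differences measure the spread between the differentiation experiments, which in the windows includes differences in sampling day. In the first window replicates 2 and 3 were of days 23 and 21 (female) and of days 21 and 19 (male). In the late window they were of days 29 and 29 (female) and of days 27 and 30 (male). The p-values of ratios pool both lines, so their spread also includes the difference between the lines.

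A miRNA is cut from a hairpin in a longer primary transcript, and 1 arm of the hairpin, the guide, is loaded into Argonaute while the other, the passenger, is mostly lost. The guide finds its messenger RNA targets mainly through bases 2 to 8, the seed. miR-192 and miR-194 are known from the epithelium of the gut and from liver and kidney. In human cells they are also known as miRNAs induced by p53 that slow the cell cycle. The mouse genome holds them in a pair of loci. Mir194-2 and Mir192 stand side by side on chromosome 19, and Mir194-1 and Mir215 side by side on chromosome 1.

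In GRCm38 the chromosome 19 hairpins lie on the + strand at chr19:6264643-6264728 (Mir194-2) and chr19:6264844-6264932 (Mir192), with 115 bases between them. They are intergenic in GENCODE M21, between Atg2a and the lincRNA gene Gm14963. The chromosome 1 hairpins lie on the + strand at chr1:185313319-185313385 (Mir194-1) and chr1:185313581-185313692 (Mir215), with 195 bases between them. Both are inside an intron of Iars2, which runs on the opposite strand. They also lie inside the antisense transcript gene 2010103J01Rik, Mir194-1 in an intron and Mir215 in an exon. The hairpins of the chromosome 19 locus are shown because this locus holds hairpins of both members, with the mature arms in capitals (RefSeq, GRCm38.p6).
Mir194-2: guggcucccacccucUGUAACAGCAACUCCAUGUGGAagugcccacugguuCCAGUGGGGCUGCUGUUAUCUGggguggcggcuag
Mir192: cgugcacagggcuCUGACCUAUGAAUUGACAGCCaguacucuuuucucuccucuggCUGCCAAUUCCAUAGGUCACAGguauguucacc

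The mature sequences that the results below turn on are given 5′ to 3′ with the seed in capitals (RefSeq, GRCm38.p6; 7 of the 7 arms of the loci were matched by name).
miR-192-5p: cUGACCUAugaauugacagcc
miR-215-5p: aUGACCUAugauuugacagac
miR-194-5p: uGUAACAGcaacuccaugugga
miR-194-2-3p: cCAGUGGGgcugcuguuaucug
miR-194-1-3p: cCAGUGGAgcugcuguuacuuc
The guides miR-192-5p and miR-215-5p share their seed, and no other of the 1679 mature names in the table has it. Along their 21 bases, counted from 1 at the 5′ end, miR-192-5p and miR-215-5p differ by C1A, A12U and C20A. The guide miR-194-5p has the same letters at both loci, so its counts cannot be assigned to one of them, and its seed is carried by no other name. Its passenger arms do differ. From miR-194-1-3p to miR-194-2-3p the changes are A8G, C19U, U20C and C22G, and the first of these lies in the seed.

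Library totals lay between 7.11 and 18.0 M (mega) miRNA counts, and 863 to 919 miRNAs had at least 1 count in a library. A count of 0 allows up to 3 counts, which are 0.166 to 0.422 CPM (counts per M of the library total). Levels below are CPM after TMM scaling, the trimmed-mean library scaling of edgeR. The 4 primed markers of the miR-302 cluster summed to 8516 to 70973 CPM in the libraries of day 4 and later, against 157 to 546 CPM at day 0. The libraries of a group differed far beyond counting error (the lowest chi-square over its degrees of freedom was 259), so none was a repeat deposit.

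Both members were highest in the naive cells of both lines and lower at all stages after the move to Activin A and Fgf2. miR-192-5p was the abundant one of the pair. In female cells its level in replicates 2 and 3 was 1975 and 1029 CPM at day 0, 901 and 522 CPM at day 4, 653 and 751 CPM at day 10, 465 and 553 CPM at days 19 to 23, and 457 and 592 CPM at days 27 to 30. In male cells it was 3338 and 1532 CPM at day 0, 731 and 284 CPM at day 4, 874 and 719 CPM at day 10, 628 and 506 CPM at days 19 to 23, and 489 and 404 CPM at days 27 to 30. After TMM scaling, none of the 8 later libraries of a line reached the lower of its day 0 libraries. By share of all counts, replicate 3 of female day 10 (0.0875%) stood level with replicate 3 of female day 0 (0.0874%). How common a gap between day 0 and later libraries was among all miRNAs was not determined. miR-192-5p took 0.0288 to 0.270% of a library's counts. By level among all miRNAs it stood at rank 53 to 107 in the day 0 libraries, and its lowest rank in any library was 174.

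miR-194-5p ran well below its partner and was likewise highest at day 0. In female cells its level in replicates 2 and 3 was 189 and 128 CPM at day 0, 71.0 and 40.8 CPM at day 4, 57.2 and 69.5 CPM at day 10, 43.1 and 49.96 CPM at days 19 to 23, and 41.0 and 55.9 CPM at days 27 to 30. In male cells it was 285 and 176 CPM at day 0, 56.4 and 28.8 CPM at day 4, 86.7 and 49.1 CPM at day 10, 44.2 and 58.7 CPM at days 19 to 23, and 44.0 and 51.9 CPM at days 27 to 30. Here too none of the 8 later libraries of either line reached the lower day 0 library. As above, how common this was among all miRNAs was not determined. The rank of miR-194-5p was 167 to 247 at day 0 and 352 at its lowest.

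**Figure D1:**
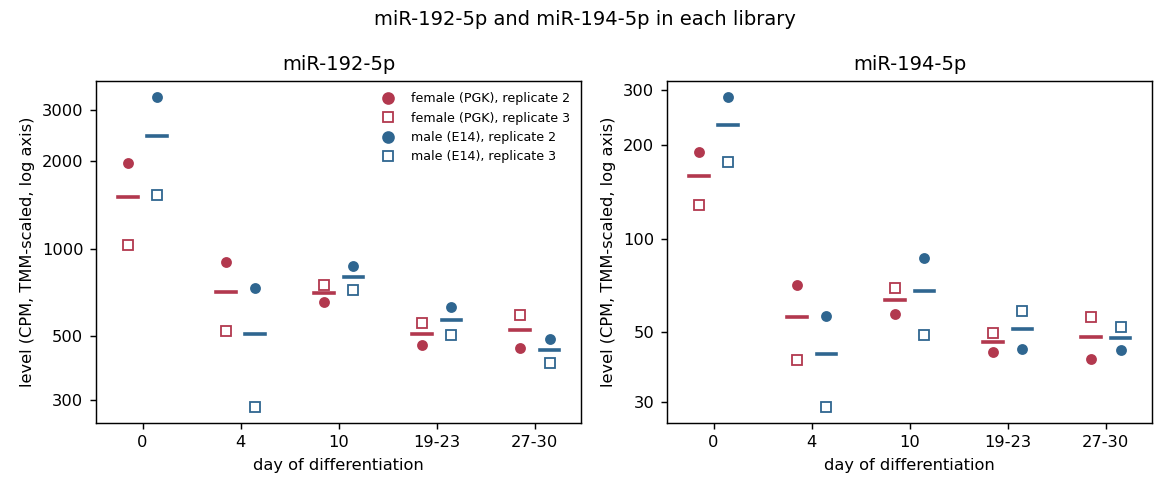
Level of miR-192-5p (left) and miR-194-5p (right) in each of the 20 libraries, in CPM on a log axis, by day of differentiation. Points are libraries, bars the mean of the 2 libraries of a group. After TMM scaling, the day 0 libraries of each line (1029 CPM or more for miR-192-5p, 128 CPM or more for miR-194-5p) lie above all later libraries of that line.

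Ordered by mean, male day 0 stood first for miR-192-5p at 2435 ± 1277 CPM, then female day 0 at 1502 ± 669 CPM (SD, n = 2 each). The libraries of these groups overlapped. The next group, male day 10 at 797 ± 109 CPM, did not overlap with female day 0. The 8 later groups ended with male days 27 to 30 at 446 ± 60.1 CPM, and among neighbours in that order only female day 10 (702 ± 68.9 CPM) and male days 19 to 23 (567 ± 86.3 CPM) did not overlap. For miR-194-5p the order began in the same way, with male day 0 at 230 ± 77.3 CPM, female day 0 at 158 ± 43.3 CPM and male day 10 at 67.9 ± 26.6 CPM. It ended with male day 4 at 42.6 ± 19.5 CPM. Below day 0, each of its groups overlapped with the next.

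Against day 0, miR-192-5p fell in male cells at all 4 stages and in female cells at both late windows (edgeR's quasi-likelihood F test, Benjamini-Hochberg adjusted over 813 miRNAs within each comparison, threshold 0.05). In male cells the log2 change of miR-192-5p was -2.26 ± 0.50 (SE) at day 4, or 4.80-fold lower, with an adjusted p of 0.00266. It was -1.61 ± 0.49 at day 10 (adjusted p = 0.0208), -2.10 ± 0.50 at days 19 to 23 (adjusted p = 0.00483) and -2.45 ± 0.51 at days 27 to 30 (adjusted p = 0.00177, 5.46-fold lower). In female cells the change was -1.56 ± 0.49 at days 19 to 23 (adjusted p = 0.0195) and -1.52 ± 0.49 at days 27 to 30 (adjusted p = 0.0207, 2.87-fold lower). At female day 4 it was -1.08 ± 0.49 (adjusted p = 0.0883) and at female day 10 -1.10 ± 0.49 (adjusted p = 0.0849), which did not pass.

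miR-194-5p fell at all 4 stages in both lines. Its log2 change in female cells was -1.50 ± 0.45 (SE) at day 4 (adjusted p = 0.0156), -1.32 ± 0.45 at day 10 (adjusted p = 0.0287), -1.77 ± 0.45 at days 19 to 23 (adjusted p = 0.00577) and -1.71 ± 0.45 at days 27 to 30 (adjusted p = 0.00681, 3.27-fold lower). In male cells it was -2.44 ± 0.46 at day 4 (adjusted p = 0.000989, 5.41-fold lower), -1.76 ± 0.45 at day 10 (adjusted p = 0.0086), -2.16 ± 0.46 at days 19 to 23 (adjusted p = 0.00233) and -2.26 ± 0.46 at days 27 to 30 (adjusted p = 0.00156, 4.81-fold lower), each by edgeR. The share of all tested miRNAs that changed against day 0 was 39.1% in female and 43.4% in male cells at day 4, and 40.1% in female and 33.7% in male cells at day 10. It was 40.5% in female and 34.3% in male cells at days 19 to 23, and 43.5% in female and 40.7% in male cells at days 27 to 30. Calls that were lower made up 14.6 to 21.2% of the tested miRNAs, so a fall of this kind was common. Counted from the most negative log2 change, the members held ranks 77 to 200 of 813 in these comparisons. The median log2 change of all tested miRNAs lay between -0.04 and 0.09 in these comparisons.

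The fall was also present within each experiment. Set against the day 0 library of the same line and experiment, miR-192-5p was lower in 16 of 16 later libraries after TMM scaling. It was lower by 1.37-fold to 6.83-fold with a median of 3.41-fold. The lowest of these, female day 10 of replicate 3, depended on the scaling. As a share of all counts miR-192-5p stood there at 0.0875%, against 0.0874% at day 0. miR-194-5p was lower in 16 of 16, by 1.84-fold to 6.48-fold with a median of 3.35-fold. The share of all miRNAs lower in 16 of 16 was not determined. The smallest log2 differences of miR-192-5p were those of female replicate 3, between -0.98 and -0.46.

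How high the naive level stood differed between the experiments, and 1 library carried several of the calls. miR-192-5p was 1.92 times as high in replicate 2 as in replicate 3 at female day 0 and 2.18 times at male day 0, and for miR-194-5p the ratios were 1.48 and 1.62. Without replicate 2 of female day 0, 2 of the 8 female changes of the members passed (log2 changes -1.46 to -0.53), against 6 of 8 with it. Without replicate 3 of female day 0, which carries the deviating cell-type label, 8 of 8 passed (-2.22 to -1.65). In the male line 6 of 8 passed without replicate 2 of day 0 (-2.38 to -1.04) and 8 of 8 without replicate 3 (-3.03 to -2.09), against 8 of 8 with both.

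The sum over a list of mesenchyme markers was also high at day 0. The 5 markers of that list (miR-143-3p, miR-145a-5p, miR-199a-3p, miR-199a-5p and miR-214-3p) summed to 592 to 2636 CPM in later female libraries, against 8817 and 3746 CPM in replicates 2 and 3 of female day 0. They summed to 352 to 3129 CPM in later male libraries, against 6853 and 3254 CPM at male day 0. Replicate 2 thus stood 2.35 times and 2.11 times above replicate 3 at day 0, and the members were also higher in replicate 2. A wide gap between day 0 libraries was not limited to these miRNAs. miR-15a-5p, for example, averaged 1083 ± 597 CPM at female and 1587 ± 906 CPM at male day 0 (SD, n = 2 each). The marker sum was carried by miR-143-3p, a miRNA of smooth muscle and fibroblasts. It fell against day 0 at all 4 female stages and at 3 of 4 male ones. At female days 27 to 30 miR-199a-3p, miR-199a-5p and miR-214-3p rose, so the list did not move as one, and miR-214-3p was at 0 in 8 of the 20 libraries. Of the 5, 3 were called higher and 2 lower at female days 19 to 23 and at female days 27 to 30. At male days 4 and 10, 0 were higher and 4 lower. Of all tested miRNAs 21.2% and 24.1% were called higher at these female stages, and 18.3% and 17% lower at these male ones. The part of these markers in the members' fall was not tested. In cultures sampled in bulk, fewer cells with a miRNA and less of it per cell cannot be told apart.

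**Figure D2:**
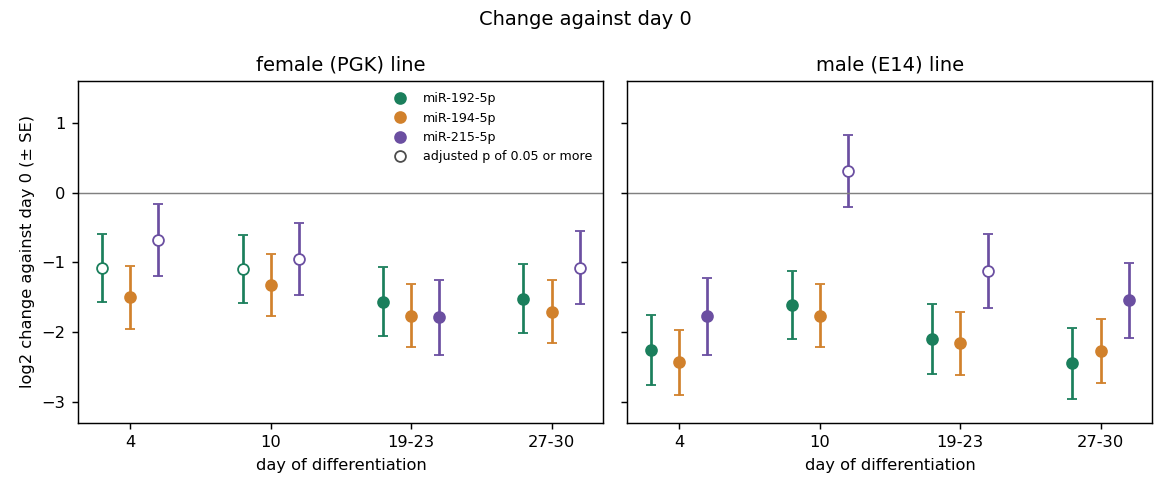
Log2 change against day 0 (± SE, edgeR) of miR-192-5p, miR-194-5p and miR-215-5p by stage in the female line (left) and the male line (right). Filled points passed an adjusted p of 0.05. All points of miR-192-5p and miR-194-5p lie below 0, while miR-215-5p stands at 0.31 at male day 10.

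After day 4 no step of the time course passed the test for either member. At day 10 against day 4 the log2 change of miR-192-5p was -0.02 ± 0.48 (SE) in female and 0.65 ± 0.48 in male cells (edgeR adjusted p = 0.988 and 0.429), while 6.52% of all tested miRNAs passed in female and 8.12% in male cells. For miR-194-5p it was 0.18 ± 0.44 in female and 0.67 ± 0.44 in male cells (edgeR adjusted p = 0.844 and 0.361). The median of all tested miRNAs in this step was -0.27 in female and -0.26 in male cells. The male libraries of these days overlapped for miR-192-5p and for miR-194-5p, and replicate 3 of male day 4 (284 CPM of miR-192-5p, 28.8 CPM of miR-194-5p) was the lowest of all 20 libraries for both. At days 19 to 23 against day 10 the changes of both members lay between -0.49 and -0.40, with 0.369% of all tested miRNAs passing in female and 0.246% in male cells. At days 27 to 30 against days 19 to 23 they lay between -0.35 and 0.06. In that last step edgeR called 0% of the miRNAs in either line, with 22 female and 37 male miRNAs at an unadjusted p under 0.05, and DESeq2 called 0 and 3.

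No difference of a member between the lines passed the test at any stage by edgeR. At day 0 the log2 difference of female minus male cells was -0.70 ± 0.48 (SE) for miR-192-5p (adjusted p = 0.480) and -0.54 ± 0.44 for miR-194-5p (adjusted p = 0.569). Of all tested miRNAs 8.73% differed between the lines at day 0 and 5.04% at day 4. At day 4 the differences of female minus male cells were 0.49 ± 0.48 for miR-192-5p (adjusted p = 0.616) and 0.39 ± 0.44 for miR-194-5p (adjusted p = 0.681). From day 10 on they lay between -0.18 and 0.23, and edgeR called 0% of the miRNAs at day 10, 0% at days 19 to 23 and 0% at days 27 to 30. At an unadjusted p under 0.05 these comparisons held 97, 60 and 63 miRNAs, and DESeq2 called 25, 2 and 4. The libraries of the lines overlapped at all 5 stages for both members. Paired by experiment number, both members were lower in female than in male cells in 2 of 2 pairs at day 0 and higher in 2 of 2 pairs at day 4. At later stages the pairs went both ways, except for miR-194-5p at days 19 to 23, lower in female cells in 2 of 2. In these 2 pairs the female library was the later one, at day 23 against 21 and at day 21 against 19. Line and sampling day cannot be told apart there. At days 27 to 30 the days were 29 against 27 and 29 against 30.

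The male fall was the larger one in value at all stages, and the difference between the falls did not pass. The interaction, the female change minus the male change, was 1.18 ± 0.68 (SE) for miR-192-5p at day 4 (edgeR adjusted p = 0.429) and 0.93 ± 0.68 at days 27 to 30 (adjusted p = 0.642). For miR-194-5p it was 0.93 ± 0.62 at day 4 (edgeR adjusted p = 0.505) and 0.56 ± 0.62 at days 27 to 30 (adjusted p = 0.767). At day 10 and at days 19 to 23 it lay between 0.40 and 0.54 for both. The median interaction of all tested miRNAs was also above 0, at 0.17, 0.15, 0.24 and 0.24 in the 4 stages in order of time. Among all miRNAs the interaction passed in 0% at day 4, in 0% at day 10, in 0% at days 19 to 23 and in 0.369% at days 27 to 30. The first 3 of these held 118, 98 and 94 miRNAs at an unadjusted p under 0.05, and DESeq2 called 11, 19 and 37 in them. At days 27 to 30 edgeR called 3 miRNAs, against 39 by DESeq2 and 20 with the replicate as a block.

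The ratio of the members was taken within each library, and its range was not compared with those of other pairs of like abundance. miR-192-5p had 7.78 to 14.7 counts per count of miR-194-5p in the 20 libraries, with a median of 10.9. The ratio was 8.05 to 11.7 at day 0, 9.88 to 13.0 at day 4, 10.1 to 14.7 at day 10, 8.62 to 14.2 at days 19 to 23 and 7.78 to 11.1 at days 27 to 30. Day 4 libraries stood 0.32 higher than day 0 libraries on the log2 scale (exact permutation test, 2-sided, n = 4 against 4, p = 0.0857, adjusted over the 4 stages p = 0.343). At day 10, days 19 to 23 and days 27 to 30 the differences from day 0 were 0.27, 0.19 and 0.06 (exact permutation p = 0.2, 0.4 and 0.829). The smallest p this design can give is 0.0286, which for a single stage becomes 0.114 after the adjustment, so 1 stage alone could not have passed. The test also leaves out the pairing by line and experiment. It therefore cannot decide whether the ratio stayed the same. Within line and experiment the ratio was above that of the day 0 library in 4 of 4 pairs at day 4, 3 of 4 at day 10, 3 of 4 at days 19 to 23 and 2 of 4 at days 27 to 30. The absolute ratio depends also on how well each molecule is ligated and amplified, so it is no measure of molecules.

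**Figure D3:**
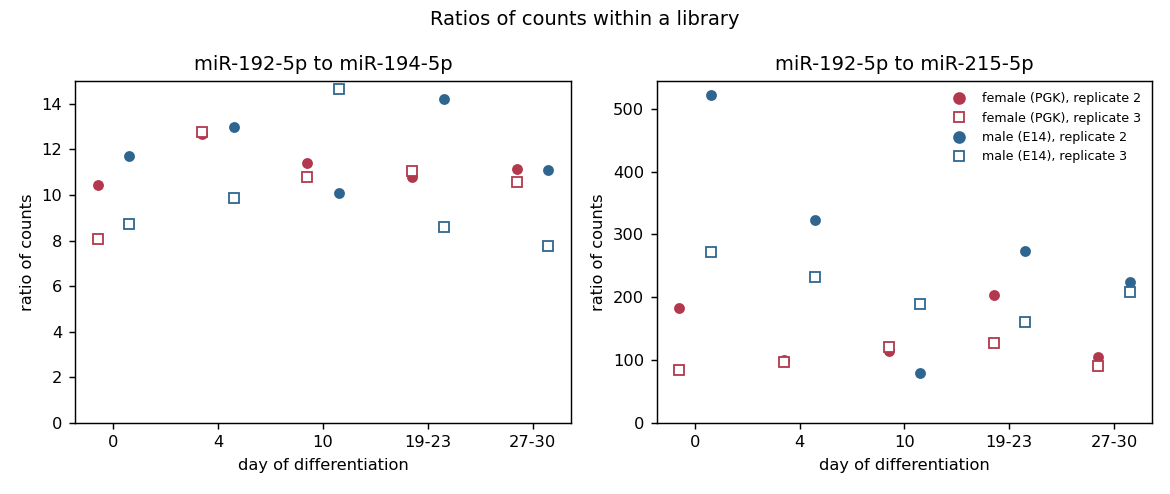
Ratio of counts of miR-192-5p to miR-194-5p (left) and to miR-215-5p (right) in each library, on linear axes from 0, by day of differentiation. The ratio to miR-194-5p stays between 7.78 and 14.7, while the ratio to miR-215-5p spans 79.8 to 522.

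Over the 10 group means of log2 CPM, each member was the miRNA most like the other, which did not hold for miR-194-5p over single libraries. Among 523 miRNAs with a mean of at least 10 CPM, miR-194-5p ranked 1 for miR-192-5p and the reverse, with r = 0.986 over the 10 groups and 0.956 over the 20 libraries. These values are descriptions, since the libraries were scaled together and r takes no account of the size of a fall after day 0. miR-211-3p averaged 78.7 CPM at female and 143 CPM at male day 0 and at most 0.458 CPM in later groups. It still reached r = 0.964 with miR-194-5p over the 10 groups. Next in likeness to miR-192-5p came miR-30f (r = 0.975), miR-1839-5p (0.969), miR-15a-5p (0.965), miR-16-5p (0.960) and miR-32-5p (0.956). Next to miR-194-5p came miR-1839-5p (r = 0.985), miR-181c-5p (0.974), miR-211-3p (0.964), miR-15a-5p (0.963) and miR-30f (0.962). Over the 20 libraries, miR-181c-5p came before miR-192-5p in likeness to miR-194-5p (r = 0.962 against 0.956), and miR-15a-5p ranked 80 for miR-192-5p and 59 for miR-194-5p. At days 27 to 30 miR-30f averaged 10.9 ± 0.148 CPM in female cells, against 30.6 ± 6.88 CPM at female day 0 (SD, n = 2 each). miR-1839-5p averaged 114 ± 21.3 CPM at male days 27 to 30, against 830 ± 529 CPM at male day 0 (SD, n = 2 each).

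miR-215-5p, the guide with the seed of miR-192-5p, was the minor carrier of that seed. It was counted 1157 times over the 20 libraries, against 190229 counts of miR-192-5p, and miR-192-5p made up 98.8 to 99.8% of the sum of both in every library. In replicates 2 and 3 the level of miR-215-5p in female cells was 10.8 and 12.3 CPM at day 0, 9.02 and 5.41 CPM at day 4, 5.75 and 6.24 CPM at day 10, 2.28 and 4.36 CPM at days 19 to 23, and 4.37 and 6.56 CPM at days 27 to 30. In male cells it was 6.39 and 5.62 CPM at day 0, 2.26 and 1.22 CPM at day 4, 11.0 and 3.82 CPM at day 10, 2.30 and 3.17 CPM at days 19 to 23, and 2.18 and 1.94 CPM at days 27 to 30. Replicate 2 of male day 10, with 154 counts, was the only later library that reached a day 0 library of its line.

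Against day 0 miR-215-5p fell at 3 of 8 points. Its log2 change was -1.79 ± 0.53 (SE) at female days 19 to 23 (edgeR adjusted p = 0.0143), -1.77 ± 0.55 at male day 4 (adjusted p = 0.0175) and -1.54 ± 0.54 at male days 27 to 30 (adjusted p = 0.0323). At male day 10 it was 0.31 ± 0.51 (edgeR adjusted p = 0.667). It was higher at male day 10 than at male day 4, by 2.08 ± 0.55 (edgeR adjusted p = 0.0345), and at day 4 it was higher in female than in male cells by 2.04 ± 0.56 (adjusted p = 0.0461). All 5 of these calls were lost when 1 of their libraries was left out, for example that at female days 19 to 23 without replicate 2 (edgeR adjusted p = 0.131) and the step to male day 10 without its replicate 2 (adjusted p = 0.258). The ratio of miR-192-5p to miR-215-5p had a median of 171 and ran between 79.8 and 522, a wider range than that to miR-194-5p. Counting error adds to this range, since miR-215-5p had as few as 11 counts in a library.

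The passenger arms were close to the limit of detection. miR-192-3p had 45 counts over the 20 libraries, which is 4227 counts of the guide per passenger count, and was at 0 in 3 libraries. miR-215-3p had 15 counts and was at 0 in 10 libraries. The miR-194 arms, which tell the loci apart, had 131 counts of miR-194-2-3p (chromosome 19) and 17 of miR-194-1-3p (chromosome 1), beside 17994 counts of the shared guide.

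By these counts the chromosome 19 arm was the more often counted one. As for the ratio of the guides, the share depends also on how well each arm is ligated and amplified. It is therefore no measure of the output of the loci. miR-194-2-3p made up 88.5% of both arms (95% exact Clopper-Pearson interval 82.2 to 93.2%, counting error only). It was counted in 20 of 20 libraries, whereas miR-194-1-3p was at 0 in 14. Of the 17 counts of miR-194-1-3p, 10 came from replicate 2 of female day 0, where miR-194-2-3p had 6, a share of 37.5% (15.2 to 64.6%). Without that library the share of miR-194-2-3p was 94.7% (89.4 to 97.8%). At male day 10, both replicates together, miR-194-2-3p had 5 counts and miR-194-1-3p 4, a share of 55.6% (21.2 to 86.3%). In 15 of 20 libraries both arms together had under 10 counts, so the share was not tested between stages.

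In male cells miR-194-2-3p had 3 and 1 counts in replicates 2 and 3 at days 27 to 30, against 16 and 18 counts at day 0. It fell by 3.05 ± 0.84 (SE) on the log2 scale at male days 27 to 30 (edgeR adjusted p = 0.0103) and by 2.55 ± 0.82 at male day 10 (adjusted p = 0.0277). Between these stages, at male days 19 to 23, it had 15 and 7 counts, with a log2 change of -0.42 ± 0.70 (edgeR adjusted p = 0.686). Both calls rested on few counts. That at day 10 was lost without any 1 of the 4 libraries, and that at days 27 to 30 without replicate 3 of that stage (edgeR adjusted p = 0.124). In female cells it had 2 and 8 counts at days 27 to 30, against 6 and 4 counts at day 0, with a log2 change of -0.05 ± 0.82 (edgeR adjusted p = 0.975). At female day 4 it had 10 and 9 counts, with a log2 change of 1.07 ± 0.77 (edgeR adjusted p = 0.286).

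The miRNAs that define liver and exocrine pancreas were at or near 0 in these cultures. miR-122-5p, which makes up much of the miRNA of hepatocytes, had 5 counts over the 20 libraries, at most 1 in a library, and was at 0 in 15 of them. miR-802-5p, known from liver and pancreas, had 8 counts and was at 0 in 13 libraries. The pancreatic miR-216a-5p had 24 counts and miR-217-5p 101. Together with miR-215-5p these 5 markers summed to 1.22 to 12.8 CPM, most of it miR-215-5p, so miR-192-5p and miR-194-5p were counted with the defining hepatocyte marker at or near 0.

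Among other miRNAs known from these organs, the arms of miR-375 and miR-31 were those called higher after day 0. Of 19 such miRNAs, which exclude the members, 8 passed the filter on low counts. Among these, 3 were higher and 0 lower at female day 4, 4 higher and 0 lower at female day 10, 4 higher and 1 lower at female days 19 to 23, and 3 higher and 0 lower at female days 27 to 30. In male cells 2 were higher and 1 lower at day 4, 3 higher and 1 lower at day 10, 2 higher and 0 lower at days 19 to 23, and 2 higher and 2 lower at days 27 to 30. Of all tested miRNAs 24.5, 21.3, 21.2 and 24.1% were called higher at these female stages in order of time, and 25.1, 16.7, 15.9 and 19.6% at the male ones. Called lower were 14.6, 18.8, 19.3 and 19.4% at the female stages and 18.3, 17, 18.5 and 21.2% at the male ones. The 2 of 8 higher at male day 4 thus stood at the share of all miRNAs. The 2 of 8 higher and 2 of 8 lower at male days 27 to 30 were near it. Among the 8, the lower ones were miR-215-5p and miR-194-2-3p, of the loci described above. Of the 19, 13 were at 0 in both libraries of at least 1 group. These were both arms each of miR-122, miR-802, miR-216a, miR-216b and miR-217, together with miR-375-5p, miR-194-1-3p and miR-215-3p. Several tested miRNAs passed the filter only through the later stages, where they are high, so these counts say little of the list as a whole.

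miR-375-3p, a miRNA of endocrine pancreas and gut, averaged 4119 ± 1275 CPM at female days 27 to 30, against 9.06 ± 5.02 CPM at female day 0 (SD, n = 2 each). In male cells it averaged 5632 ± 5655 CPM at days 27 to 30, against 10.9 ± 0.504 CPM at day 0 (SD, n = 2 each). It was the most abundant of the 19, followed by miR-31-5p, miR-215-5p and miR-31-3p. miR-31-5p, known from intestinal and skin epithelium, averaged 746 ± 63.6 CPM at female days 27 to 30, against 119 ± 11.2 CPM at female day 0 (SD, n = 2 each), and rose by 2.64 ± 0.47 (SE) on the log2 scale (edgeR adjusted p = 0.000373). In male cells miR-31-5p rose at day 10, by 2.18 ± 0.46 (edgeR adjusted p = 0.00266), and its change at days 27 to 30 was 0.88 ± 0.45 (adjusted p = 0.125). miR-31-3p did not exceed 3.63 CPM as a group mean.

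**Figure D4:**
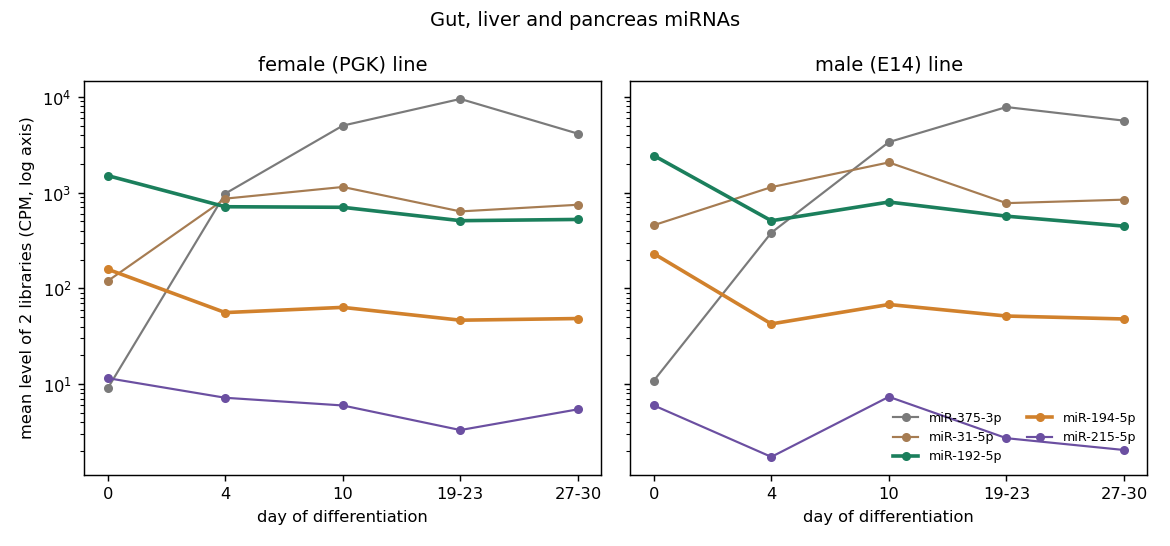
Mean level of the 2 libraries of each group, in CPM on a log axis, of the members and of the 3 most abundant other gut, liver and pancreas miRNAs, by day of differentiation in the female line (left) and the male line (right). Thick lines are the members. miR-375-3p and miR-31-5p are lowest at day 0, where miR-192-5p and miR-194-5p are highest.

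The p53-responsive list, taken because p53 is a known inducer of the members in human cells, was split. All of its 9 miRNAs were tested. In both lines 4 rose at each of the 4 stages, and all of them were arms of miR-34b and miR-34c. Over all tested miRNAs 15.9 to 25.1% were called higher and 14.6 to 21.2% lower in these comparisons. The 2 or 3 of 9 that fell were above the share called lower, by a margin that was not tested and that so short a list cannot resolve. miR-107-3p fell at all 8 points. miR-145a-5p fell with it at the 4 female stages and at male days 4 and 10, and miR-34a-5p and miR-34a-3p did so at the male stages from day 19 on. miR-34c-5p averaged 3924 ± 253 CPM at female days 27 to 30, against 335 ± 77.8 CPM at female day 0 (SD, n = 2 each). miR-107-3p averaged 291 ± 1.62 CPM at female days 27 to 30, against 910 ± 212 CPM at female day 0 (SD, n = 2 each), and fell by 1.64 ± 0.36 (SE) on the log2 scale (edgeR adjusted p = 0.00193). miR-34a-5p, a direct target of p53, fell in male cells at days 27 to 30 by 1.98 ± 0.56 (edgeR adjusted p = 0.0121).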

How the data were processed

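The deposited raw tables hold the authors' count per mature miRNA and library, from Illumina small RNA libraries of Trizol-lysed, DNase-treated RNA per the labels' protocols. CASAVA 1.8.2 and DESeq2 appear in the submitters' processing notes. The aligner and the counting of reads shared by copies were not given in the sources used here, so counts of miR-194-5p could come from either locus. The authors' normalized signal values are these counts over 1 size factor per library, and their deposited log2 values are variance-stabilised. Both served for checks only (for the members the log2 values were within 0.0179 of the log2 normalized value).

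The counts of the 1063 shared miRNAs were fitted with edgeR 4.0.16 (R 4.3.3; quasi-likelihood F test, all 20 libraries, 1 coefficient per group, TMM scaling, filterByExpr by group, 813 tested), adjusted by Benjamini-Hochberg within each of 23 comparisons at 0.05. SEs are the absolute log2 change divided by the square root of F. Ratios were tested by exact permutation (scipy 1.17.1). Intervals and floors (3 counts) cover counting error only. All tests were also tested on simulated data. Likeness used log2(CPM + 0.5).

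Members, lists and the rule for named miRNAs (the members, all arms of the loci, the 4 list members of highest mean CPM and those at 0 in a group, the 5 most alike) were chosen with earlier results of these data known. Alternatives were DESeq2 1.42.0, RLE or total scaling, all miRNAs without a filter, only those averaging 10 CPM or more, a replicate block, each line alone and leaving out each library. The experiment number in the labels was taken to mark an experiment shared by both lines. Deviations from group means correlated at 0.118 to 0.600 between the lines at the same stage and experiment number (5 of 5 over 0.1). Between stages of 1 line the median was 0.114 (female) and 0.0590 (male), against 0.109 where both line and stage differed. These correlations therefore do not show that the number links the stages of a line.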

Additional observations from a re-analysis of the deposited data

How the results depend on the processing

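Of 16 changes of the members against day 0, 5 passed in all 12 settings, at male day 4 and male days 27 to 30 for both and at male days 19 to 23 for miR-194-5p, and all 176 alternative values had the same direction.

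With library totals only, the female changes of miR-192-5p at days 19 to 23 (-1.03) and days 27 to 30 (-1.09) and of miR-194-5p at day 10 (-1.03) no longer passed. The cause was not tested, but total scaling moved the median of all miRNAs by -0.28 to 0.68 against TMM, and RLE by -0.24 to 0.27. The change of miR-192-5p at female day 4 passed with RLE (-1.28), library totals (-1.44), a mean of at least 10 CPM (-1.50), DESeq2 (-1.28) and the female line alone (-1.51), and that at female day 10 with DESeq2 (-1.13) and the female line alone (-1.23).

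Signs that turned were those of differences near 0 that passed nowhere. For miR-192-5p from female day 4 to day 10 they became 0.14 with RLE and DESeq2, 0.62 with totals, 0.24 without a filter, 0.39 at 10 CPM, 0.052 with the replicate as a block and 0.28 in the line alone. From days 19 to 23 to days 27 to 30 in female cells miR-192-5p became -0.056 with totals and -0.0013 at 10 CPM, and miR-194-5p -0.040 with totals. From male day 10 to days 19 to 23 totals gave 0.015 for miR-192-5p and 0.17 for miR-194-5p. Between the lines totals gave 0.036 for miR-194-5p at day 10. At days 27 to 30 miR-192-5p became -0.0047 with RLE and DESeq2 and -0.013 with totals, and miR-194-5p -0.22 with RLE and DESeq2, -0.23 with totals, and -0.10 without a filter and at 10 CPM. The late ratio became -0.12 in the male line alone. The replicate as a block changed no call of the members. Counts of calls over all miRNAs that moved by over 1.5 times included those of male day 10 against day 4 (66, against 108 with DESeq2, 31 in the line alone and 19 with totals), male days 19 to 23 against day 10 (2, against 11 with DESeq2 and 0 with totals), the lines at day 4 (41, against 78 with DESeq2) and at day 10 (0, against 25 with DESeq2 and 17 with the block), and the interactions at days 19 to 23 (0, against 37 and 15) and days 27 to 30 (3, against 39 and 20, and 8 to 17 elsewhere).

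Leaving out 1 library, female changes against day 0 of miR-192-5p ran between -1.93 and -0.53 at day 4, -1.65 and -0.55 at day 10, between -2.10 and -1.02 at days 19 to 23, and between -2.06 and -0.97 at days 27 to 30. Those of miR-194-5p ran between -2.22 and -1.16, -1.74 and -1.01, -2.16 and -1.46, and -2.11 and -1.40. Male changes of miR-192-5p ran between -2.09 and -1.04 at day 10 and -2.62 and -1.43 at days 19 to 23, and of miR-194-5p between -2.23 and -1.41 at day 10. Beside the day 0 libraries, calls ended without replicate 2 of female days 19 to 23 or days 27 to 30 (both members), replicate 3 of female days 19 to 23 (miR-192-5p), replicate 3 of female day 4 and replicate 2 of female day 10 (miR-194-5p), replicate 3 of male day 10 (both) and replicate 2 of male day 10 (miR-192-5p). A group reduced to 1 library was taken to vary as the others do. Steps and line differences, none of which passed, ran between -0.36 and 0.53 (miR-192-5p) and -0.16 and 0.74 (miR-194-5p) from female day 4 to day 10, -0.75 and 0.020 from male day 10 to days 19 to 23 (miR-194-5p), and -0.20 and 0.25 (miR-192-5p), -0.23 and 0.29 (miR-194-5p) and, in male cells, -0.31 and 0.16 (miR-194-5p) over the last step. Between the lines they ran between -0.040 and 1.19 (miR-192-5p) and -0.016 and 0.82 (miR-194-5p) at day 4, -0.46 and 0.23 at day 10 (miR-194-5p), and -0.16 and 0.29 (miR-192-5p) and -0.41 and 0.11 (miR-194-5p) at days 27 to 30. Interactions ran between -0.15 and 1.06 at day 10 and -0.23 and 1.09 at days 19 to 23 (miR-192-5p) and -0.091 and 0.71 at days 19 to 23 (miR-194-5p), and the late ratio between -0.025 and 0.18. Depth limits the passenger arms, and 2 libraries a group limit the rest.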
